A study of Mus musculus with 4 samples.

Results

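The genes described here are 10 immediate early transcription factors, listed by symbol and not chosen by a threshold: Fos, Fosb, Jun, Junb, Egr1, Ier2, Atf3, Nr4a1, Klf2 and Klf4. All 10 were found among the 53647 genes of the count tables, each by 1 gene identifier, and each passed the filter on low counts in all 10 cell classes tested. The cells came from the injured spinal cord of aged mice of the inbred strain C57BL/6J and were profiled by droplet single-cell RNA sequencing with 3′ tags. One group of 2 libraries came from mice given an anti-CD8 antibody, directed at the coreceptor of cytotoxic T cells, and the other group of 2 libraries from mice given IgG. Every mouse in both groups was injured, and tissue was taken at 28 days, so no uninjured cord was compared. A short piece of cord holding the lesion was dissociated enzymatically and cleared of myelin with beads, and the labels name no sort of the cells. The design text calls the libraries biological replicates but does not give how many mice went into each. P-values therefore measure the spread between these libraries.

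After filtering and doublet removal, 7481 and 7816 cells remained in the anti-CD8 libraries, and 6108 and 6290 in the IgG libraries, 27695 in all. Median depth per cell was lower in the anti-CD8 libraries, at 17284 and 18365.5 UMIs (unique molecular identifiers, counted RNA molecules), than in the IgG libraries, at 21950.5 and 20469.5 UMIs. As a check of the labels, Cd8b1, which encodes a chain of CD8, was at 281 and 161.6 CPM (the gene's UMIs scaled to a common total of UMIs) in anti-CD8 T cells and at 719 and 501 CPM in IgG T cells. A UMI of Cd8a or Cd8b1 was found in 39.8% and 35% of T cells in the anti-CD8 libraries (148 of 372 and 84 of 240), and in 85.6% and 73.4% in the IgG libraries (273 of 319 and 490 of 668). Cells were grouped into 31 clusters without using the members' own counts. Clusters were named for the cell type whose markers they carried, so that "neurons", "T cells", "microglia" and the other names below stand for neuron-like, T-cell-like and microglia-like clusters. A pair of myeloid clusters stayed unnamed and is called by leading genes: cluster 1 (Apoc4, Apoc1, Apoe) and cluster 3 (Il12b, Cxcl2). Pairs of libraries shared 7 to 23 cell barcodes, 0.103% to 0.349% of the smaller library.

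Immediate early genes are transcribed within minutes of a signal at the cell surface, from factors already present in the cell and without new protein synthesis. Fos and Fosb encode proteins that pair with those of Jun and Junb to form AP-1, and Atf3, a stress-induced factor, can pair with Jun proteins. Egr1 encodes a zinc finger factor downstream of MAP kinase signalling, Ier2 a small nuclear regulator, and Nr4a1 an orphan nuclear receptor that follows antigen receptor signalling in T cells. Klf2 and Klf4 encode Krüppel-like factors that laminar flow induces in endothelium, and Klf2 also maintains quiescence and trafficking of naive T cells. In neurons Fos, Egr1 and Nr4a1 follow synaptic activity, and in many tissues the whole group is known to be induced by enzymatic dissociation of live cells.

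The promoters of Fos, Fosb, Junb and Nr4a1 are shown as 4 of the 7 members that carry the letters TGACG: the AP-1 genes among them, and Nr4a1, which had the most matches. TGACG is the core of the cyclic AMP response element through which activity reaches immediate early genes. Each run is the 250 bases before the RefSeq start, read 5′ to 3′ on the gene's strand from GRCm38.p6, and capitals mark TGACG or its reverse complement CGTCA.
Fos, chr12:85473640-85473889, plus strand: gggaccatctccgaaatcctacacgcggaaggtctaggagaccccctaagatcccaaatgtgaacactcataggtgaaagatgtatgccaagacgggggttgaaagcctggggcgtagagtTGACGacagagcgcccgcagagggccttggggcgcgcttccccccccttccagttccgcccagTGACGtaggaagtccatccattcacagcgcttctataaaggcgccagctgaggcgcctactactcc
Fosb, chr7:19310046-19310295, minus strand: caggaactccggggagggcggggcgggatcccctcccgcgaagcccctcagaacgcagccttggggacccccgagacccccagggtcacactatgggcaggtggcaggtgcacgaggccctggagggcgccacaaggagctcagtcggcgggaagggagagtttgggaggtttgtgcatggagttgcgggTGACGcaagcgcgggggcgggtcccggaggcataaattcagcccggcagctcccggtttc
Junb, chr8:84978749-84978998, minus strand: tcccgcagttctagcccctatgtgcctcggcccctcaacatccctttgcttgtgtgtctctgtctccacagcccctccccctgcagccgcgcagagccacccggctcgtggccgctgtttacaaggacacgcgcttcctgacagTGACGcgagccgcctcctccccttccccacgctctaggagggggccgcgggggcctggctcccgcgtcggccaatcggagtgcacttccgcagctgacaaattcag
Nr4a1, chr15:101266596-101266845, plus strand: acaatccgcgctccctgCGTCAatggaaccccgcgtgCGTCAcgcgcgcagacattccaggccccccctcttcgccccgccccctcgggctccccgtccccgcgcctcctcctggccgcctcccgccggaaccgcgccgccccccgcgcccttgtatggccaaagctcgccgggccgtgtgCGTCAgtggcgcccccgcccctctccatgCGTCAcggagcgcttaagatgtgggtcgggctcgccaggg
In Fos the 2 matches began 129 and 66 bases before the start, in Fosb the match began 60 and in Junb 106 bases before it. Nr4a1 had 4 matches on the opposite strand, at 233, 213, 69 and 40 bases. RefSeq promoter windows were matched for 8 of the 10 members, and 7 of these 8, every one but Jun, held TGACG on either strand within 250 bases before to 50 bases after the start. The same was true of 20.8% of 32851 windows in the table. The full element TGACGTCA, which contains TGACG, was in 0 of the 8 windows and in 1.79% of all windows, and the AP-1 motif TGACTCA was in 0 of the 8 and in 5.2% of all. The MEF2 motif was in 3 of the 8 windows, those of Jun, Atf3 and Klf2, and in 0.557% of all. Of the other motifs searched on both strands, GCGGGGGCG was in 4 of the 8 (2.91% of all), GGGCGG in 7 (35.7%), CACCC in 5 (57.5%), TATAAA in 2 (13.6%) and the CArG box in 0 (1.63%); GCGGGGGCG followed by G also holds GGGCGG. A match describes these letters only.

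Across the cell classes, ependymal cells or the cells of the vessel wall had the highest mean level of 9 of the 10 members, and T cells that of Junb (the plot of levels by class). Some of these leads overlapped the next class, that of Junb among them. Levels are CPM of UMIs summed over the cells of a class in 1 library, and each mean and SD is over the 4 libraries. Members were listed with these patterns known, so the levels are described and not tested. All 4 libraries came from dissociated tissue. Expression in the cord and induction during dissociation therefore cannot be told apart, in these levels or in the changes between groups below. Levels are compared between classes and not between genes.

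Among the AP-1 genes, Fos was highest in ependymal cells, at 4392 ± 841 CPM, and the libraries there did not overlap those of endothelial cells (1539 ± 204 CPM) or mural cells (1514 ± 337 CPM). Macrophages followed at 779 ± 75 CPM and microglia at 380 ± 45 CPM, each range apart from the class above it. Below microglia the ranges ran into each other, through neurons (311 ± 139 CPM) and T cells (192 ± 32 CPM) to cluster 1 at 132 CPM. Fosb had the same top 4 classes, led by ependymal cells at 587 ± 97 CPM. Jun was at 3177 ± 413 CPM in ependymal and 2642 ± 273 CPM in endothelial cells, with overlapping ranges. Its lowest mean was in neurons at 336 CPM, overlapping cluster 1 at 337 CPM. Junb stood apart from this order. Its mean was highest in T cells, at 2220 ± 409 CPM, but their range of 1758 to 2573 CPM overlapped that of endothelial cells, 1627 to 2055 CPM. Junb was between 965 and 1883 CPM in every other class except neurons, and was 211 ± 76 CPM in neurons, below the range of all other classes.

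Atf3 was likewise highest in ependymal cells, at 2369 ± 396 CPM, but microglia (905 ± 42 CPM) and macrophages (866 ± 61 CPM) came next, above both vessel classes. It was lowest in T cells (71 ± 37 CPM) and neurons (64 ± 27 CPM). Egr1 was at 1978 ± 208 CPM in ependymal cells and from 804 to 932 CPM in the vessel classes. Ier2 was highest in endothelial cells, at 565 CPM, overlapping mural cells at 475 CPM. Nr4a1 was highest in mural cells, at 306 CPM, with T cells next at 222 CPM and overlapping them. Klf2 and Klf4 had the most distinct order. Endothelial cells led with 2245 ± 83 CPM of Klf2 and 1320 ± 31 CPM of Klf4, mural cells followed with 1420 ± 184 and 834 ± 66 CPM, ependymal cells came next, and none of these ranges overlapped. The place of mural cells in this order rests on cluster 18, which also carried endothelial RNA: without it, mural cells had 250 and 290 CPM of Klf2 in anti-CD8 libraries and 389 and 592 CPM in IgG libraries, overlapping ependymal cells. Their Klf4 was then at 232 and 246 CPM in anti-CD8 libraries and 189 and 268 CPM in IgG libraries, below ependymal cells. Nr4a1 kept its high level without cluster 18, at 627 and 403 CPM in anti-CD8 mural cells and 958 and 552 CPM in IgG mural cells. Neurons were the lowest class for both, at 25 and 19 CPM.

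**Figure D1:**
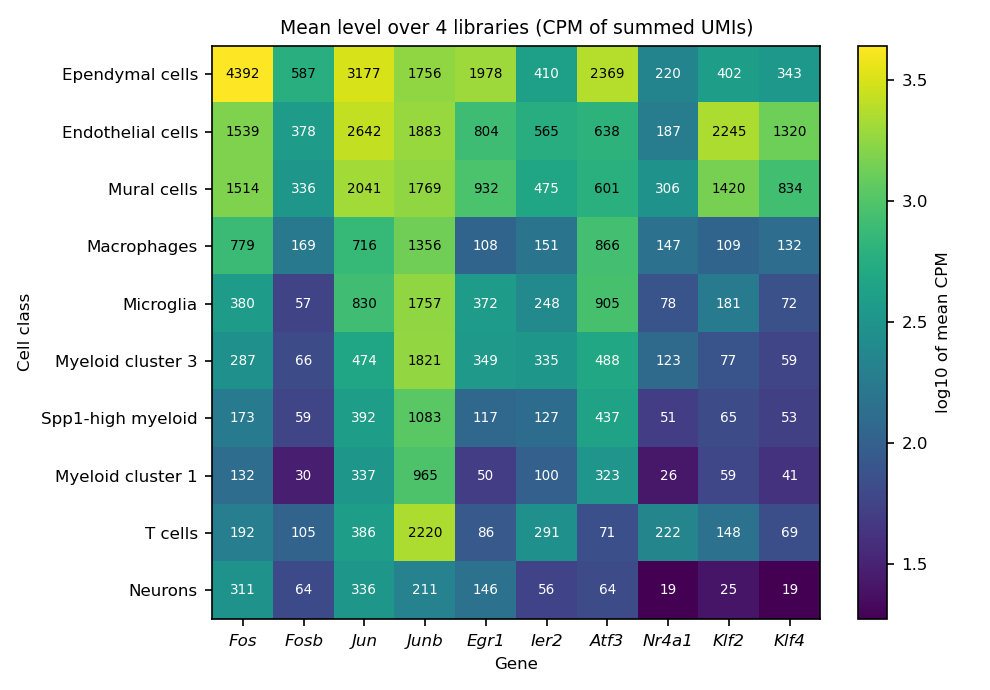
Mean CPM of each member (columns) in each cell class (rows), over 4 libraries; colour is the log10 of the mean and the printed number is the mean. Ependymal cells reached 4392 CPM of Fos and endothelial cells 2245 CPM of Klf2, while neurons were lowest for Junb, Klf2 and Klf4.

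Over the 40 sums of 10 classes and 4 libraries, the members' patterns were most alike for Klf2 and Klf4 (Pearson r = 0.966), followed by Fos with Jun (0.942) and Fos with Fosb (0.935), while Fos and Junb were at 0.334. The 40 sums are not independent, since the classes of a library share its preparation and depth, so no p is given. Of all other genes, those closest to the mean pattern of the members were Pdlim5 (0.962), Ddx3x (0.960), Jund (0.960), Bag3 (0.948) and Ctnna1 (0.943). Closest to Fos alone were Gadd45g (0.930), Lmna (0.900) and Gja1 (0.900), and closest to Klf2 alone were Midn (0.963), Lats2 (0.961) and Flii (0.957).

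In neurons 5 of the 10 members rose in anti-CD8 libraries relative to IgG libraries, and the other 5 did not pass the test. The comparison asks what changed in each cell class when CD8-bearing cells were targeted. The fold changes were above 0 for 10 of 10 members, with a median log2 fold change of 1.04, against a median of -0.004 over 13980 genes tested. Members were chosen with earlier results of these data known. Counts of directions and calls, here and in the classes below, are therefore not independent support for a pattern. In edgeR's quasi-likelihood test on summed UMIs with Benjamini-Hochberg adjustment over all genes of the class, the 5 that rose were Fos, Fosb, Jun, Junb and Klf2. Of all genes tested 1.27% were called, 0.93% higher and 0.343% lower. With 2 libraries against 2, an exact permutation test of a single value cannot go below p = 0.33, so the calls rest on the fit across genes. Groups that do not overlap, in this class or in those below, reach no more than that p. The share of all genes whose groups do not overlap was not counted, so such statements describe the values only.

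The values that follow are CPM scaled by TMM, a normalization for library composition. Fos was at 462 and 390 in anti-CD8 neurons and at 214 and 184 in IgG neurons (log2 fold change 1.10, SE 0.17, adjusted p = 0.019). Fosb was at 117 and 72.7 in anti-CD8 neurons and at 28.1 and 38.6 in IgG neurons (log2 fold change 1.48, SE 0.24, adjusted p = 0.021). For both genes the lower anti-CD8 library lay above the higher IgG library by more than the gap within IgG. Jun was at 533 and 365 in anti-CD8 neurons and at 230 and 224 in IgG neurons, a change of 0.99 (SE 0.20, adjusted p = 0.041). Junb was at 285 and 262 against 131 and 170 in IgG neurons, a change of 0.86 (SE 0.17, adjusted p = 0.041). Thus all 4 AP-1 genes were higher in both anti-CD8 libraries. Klf2, otherwise scarce in neurons, was at 32.9 and 41.2 in anti-CD8 neurons and at 11.2 and 16.9 in IgG neurons, a change of 1.36 (SE 0.25, adjusted p = 0.028).

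The other members missed the threshold. Klf4 was at 31.1 and 21.97 in anti-CD8 neurons and at 10.4 and 12.1 in IgG neurons (log2 fold change 1.22, adjusted p = 0.056). Egr1 was at 216 and 159 against 114 and 98.5 in IgG neurons (0.83, adjusted p = 0.061), and Ier2 at 94.8 and 57.8 against 43.0 and 29.2 (1.10, adjusted p = 0.075). The groups did not overlap for any of these 3. Atf3 did not overlap either, at 76.0 and 85.5 in anti-CD8 neurons and 25.3 and 72.9 in IgG neurons (0.67, adjusted p = 0.562), but IgG library 1 alone was low. Nr4a1 overlapped, at 22.1 and 16.9 in anti-CD8 neurons and 14.9 and 21.2 in IgG neurons, with a change of 0.08.

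**Figure D2:**
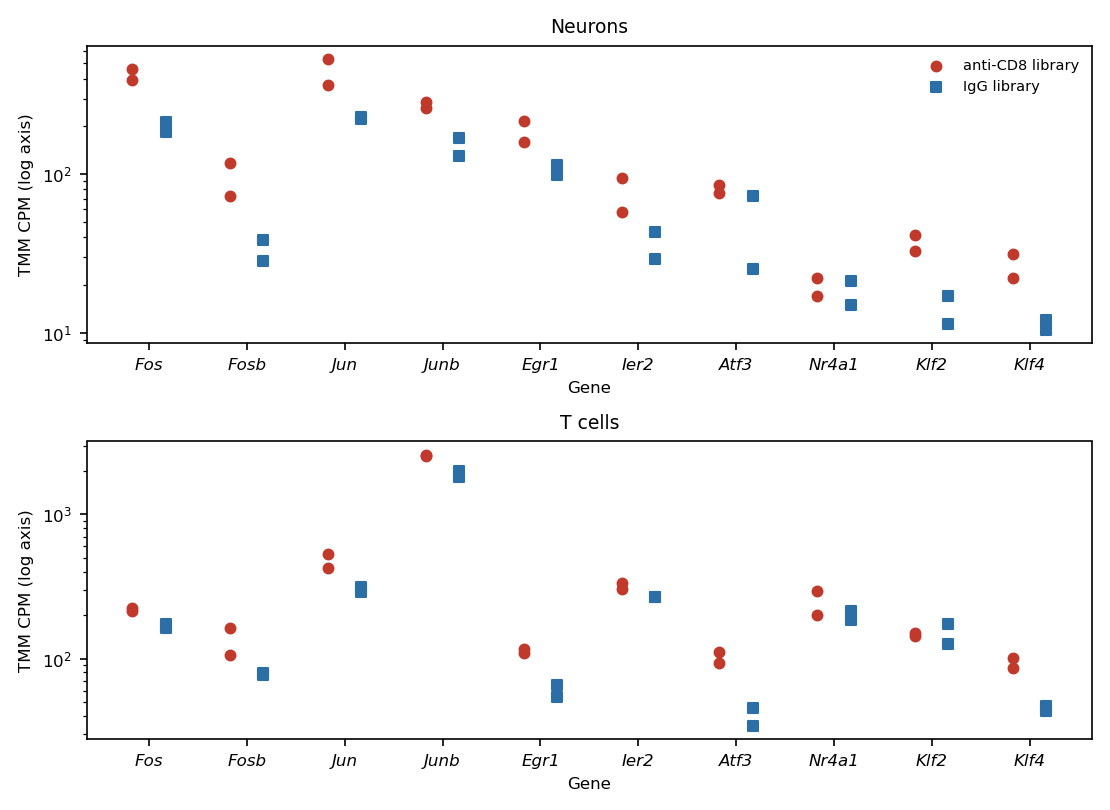
TMM-scaled CPM of each member (log axis) in neurons and in T cells, 1 point per library, anti-CD8 as circles on the left and IgG as squares on the right of each gene. In neurons both anti-CD8 points lie above both IgG points for every member but Nr4a1, and in T cells Atf3 was at 111 and 93.6 against 34.3 and 45.3. The share of all genes whose groups lie apart in this way was not counted.

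The neurons fell into 2 clusters with very different member levels. Cluster 27, led by Pkd1l2 and Pkd2l1, channel genes that mark neurons contacting the cerebrospinal fluid, held 25 and 23 cells in anti-CD8 libraries and 11 and 11 cells in IgG libraries. These were 20.7% and 15.8% of the anti-CD8 neurons and 12.1% and 6.55% of the IgG neurons. Fos was at 1429 and 1375 CPM in this cluster in anti-CD8 libraries and at 943 and 998 CPM in IgG libraries. In cluster 16, which held the remaining neurons, Fos was at 114 and 94.7 CPM in anti-CD8 libraries and at 73.2 and 101 CPM in IgG libraries. The small cluster thus carried several times the Fos of the large one in every library. Fosb, Jun, Junb, Egr1, Ier2 and Klf4 were also higher in cluster 27 than in cluster 16 of every library, while Atf3, Nr4a1 and Klf2 were not.

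In cluster 16 alone no member was called, and 1 of 13023 genes was. The log2 fold change of Fos there was 0.24, of Egr1 0.22 and of Klf2 0.58, against 1.10, 0.83 and 1.36 over all neurons. Junb was at 0.89, Fosb at 1.05, Klf4 at 1.12 and Ier2 at 0.95 there, closer to their values over all neurons. A larger share of cluster 27 among neurons and a higher level per cell cannot be told apart in the sum over all neurons. This holds for each member that was higher in cluster 27, namely Fos, Fosb, Jun, Junb, Egr1, Ier2 and Klf4. Within cluster 27, with 11 cells in each IgG library, Fosb was at 301 and 231 CPM in anti-CD8 libraries and at 105 and 201 CPM in IgG libraries. Klf2 there was at 72.1 and 133 CPM against 52.4 and 13.4 CPM in IgG libraries.

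**Figure D3:**
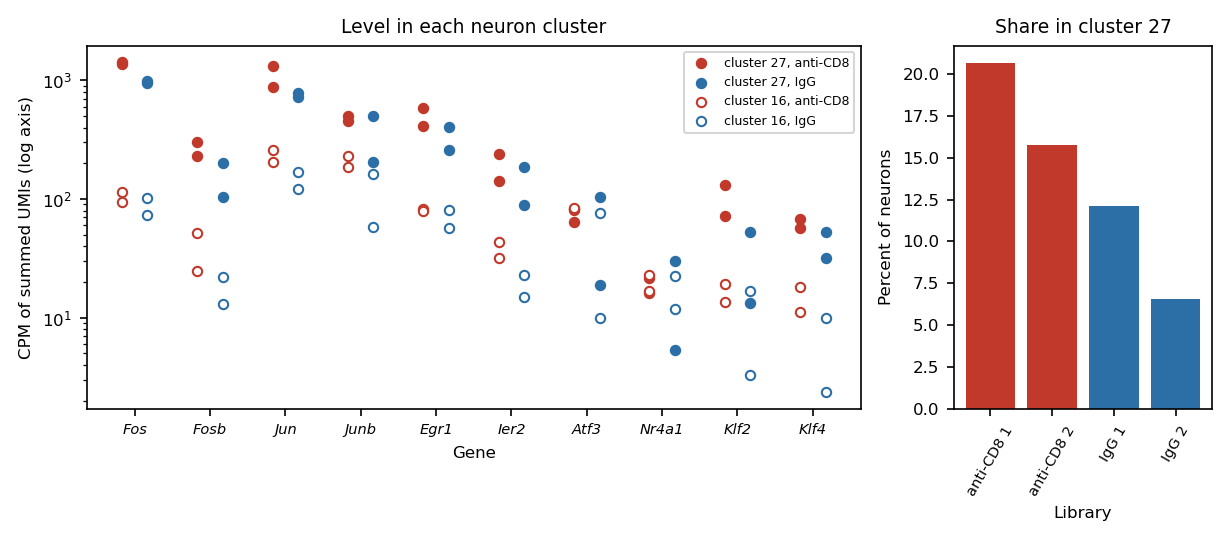
Left, CPM of each member (log axis) in neuron clusters 27 (filled) and 16 (open), 1 point per library, anti-CD8 in red and IgG in blue; right, the percent of each library's neurons that fell in cluster 27. Fos was at 1429 and 1375 CPM in cluster 27 of the anti-CD8 libraries, against 943 and 998 CPM in the IgG libraries, and the cluster held 20.7% and 15.8% of anti-CD8 neurons against 12.1% and 6.55% of IgG neurons.

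Markers of other cells moved with these results. Summed over 10 genes, microglia markers were at 487 and 510 CPM in anti-CD8 neurons and at 216 and 250 CPM in IgG neurons, with 10 of 10 above 0 and no marker at 0 in all libraries. These are 6.99% and 8.27% of their level in microglia for the anti-CD8 libraries, and 3.59% and 3.82% for the IgG libraries. Endothelial markers were at 337 and 205 CPM in anti-CD8 neurons and at 60.04 and 153 CPM in IgG neurons, with 7 of 8 tested markers above 0. Markers of Spp1-high myeloid cells were at 2449 and 1187 CPM in anti-CD8 neurons and 1046 and 878 CPM in IgG neurons, and mural markers at 176 and 17.2 CPM against 9.87 and 9.22 CPM. At the same proportions, RNA from microglia would add a difference of 17.1 CPM of Fos, where 231 CPM was measured, 68.8 CPM of Junb, where 126.5 CPM was measured, and 36.9 CPM of Atf3, where 32.5 CPM was measured. For Klf2, where 23.2 CPM was measured, the matched differences were 17.0 CPM from endothelial cells, 8.76 CPM from microglia and 8.25 CPM from mural cells, which together exceed the measured one. For Klf4, where 15.6 CPM was measured, they were 10.4 CPM from endothelial cells, 5.18 CPM from mural cells, 3.51 CPM from microglia and 2.28 CPM from Spp1-high cells, again exceeding it. For Junb they were, beside microglia, 28.9 CPM from Spp1-high, 15.6 CPM from endothelial and 10.1 CPM from mural cells. With that of microglia, these nearly reached the measured difference of Junb. For Fos they were, beside microglia, 13.3 CPM from endothelial and 8.84 CPM from mural cells. For Jun, where 228 CPM was measured, they were 33.4 CPM from microglia and 22.6 CPM from endothelial cells. Mural cells added 12.7 CPM and Spp1-high cells 12.4 CPM for Jun. These sources are not separate, since the mural class carried endothelial RNA. The neurons' own markers were at 14248 and 16451 CPM in anti-CD8 libraries and 16772 and 16377 CPM in IgG libraries. The median share of mitochondrial UMIs was 1.99% and 1.46% in anti-CD8 neurons and 2.61% and 2.20% in IgG neurons, and was lower in both anti-CD8 libraries in 9 of the 10 classes, all but T cells. The part of other cells' RNA or of this measure of cell quality in the results was not tested beyond these values and the subset of neurons given next.

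In neurons with no UMI of an endothelial marker (49 and 77 cells in anti-CD8 libraries, 40 and 78 in IgG libraries), only Junb among the members tested was called, with a log2 fold change of 1.20 (adjusted p = 0.044), where 235 of 10054 genes were. Microglia markers in these neurons were at 595 and 409 CPM in anti-CD8 libraries and 85.1 and 83.4 CPM in IgG libraries, and Spp1-high myeloid markers at 1845 and 934 CPM against 219 and 307 CPM, both wider apart than over all neurons. Their part in the call of Junb was not tested. Fos in these neurons was at 75.1 and 84.9 CPM in anti-CD8 libraries and at 113 and 94.0 CPM in IgG libraries, a change of -0.32. Having no marker UMI also depends on depth. Median depth relative to the library median was 1.52 in cluster 27, which carried most Fos per UMI, and 1.01 in cluster 16. The share of cluster 27 in this subset was not counted. Without doublet removal no member was called in neurons, with Fos at 1.02 (adjusted p = 0.068) and Fosb at 1.37 (adjusted p = 0.077). With 1 library left out in turn, Fosb stayed past the threshold each time. Fos was lost without IgG library 2 (adjusted p = 0.080), Jun without IgG library 1 (0.087) or 2 (0.101), Junb without IgG library 1 (0.402) or anti-CD8 library 2 (0.079), and Klf2 without anti-CD8 library 2 (0.158).

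Cell by cell, at an equal 2000 UMIs, a Fos UMI was found in 26.9% and 25.2% of anti-CD8 neurons (32 of 119 and 29 of 115) and in 23.9% and 19.4% of IgG neurons (21 of 88 and 31 of 160). The exact binomial 95% intervals of these shares, which cover counting error only, spanned 17.6% to 35.8% in anti-CD8 neurons and 13.6% to 34.1% in IgG neurons. Unthinned, a Fos UMI was in 49.6% and 39.0% of anti-CD8 neurons and in 42.9% and 45.8% of IgG neurons, which overlap. Every class carried some of each member, so no class gave a background share of cells. Fosb was found in 14.3% and 10.4% of anti-CD8 neurons and in 5.68% and 3.75% of IgG neurons. Thinning left out 2 and 31 shallower anti-CD8 neurons, and 3 and 8 IgG neurons. The share of neurons with at least 5 members detected was 15.1% and 6.96% in anti-CD8 libraries and 3.41% and 2.50% in IgG libraries. The share with none was 45.4% and 52.2% in anti-CD8 libraries and 54.6% and 51.3% in IgG libraries. The groups were therefore apart among the cells with many members, and overlapped among the cells with none. Among neurons with Fos, Jun was also found in 81.2% and 65.5% of anti-CD8 cells (26 of 32 and 19 of 29) and in 33.3% and 51.6% of IgG cells (7 of 21 and 16 of 31). Among neurons without Fos, it was found in 19.5% and 15.1% of anti-CD8 cells and in 14.9% and 18.6% of IgG cells.

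Genes around the members in the pathway were taken from lists chosen with earlier results of these data known. Of 10 other immediate early transcription factors tested in neurons, 8 were above 0 and 1 rose: Klf6, a Krüppel-like factor, at 102 and 103 in anti-CD8 neurons and 55.0 and 64.9 in IgG neurons (log2 fold change 0.77, adjusted p = 0.048). Of 19 immediate early effectors and feedback genes, 18 were above 0 (median 0.75) and 4 rose, namely Btg2, an antiproliferative gene (0.75), Nfkbiz, an inducible nuclear IκB protein (1.10), Socs3, a cytokine signalling inhibitor (1.30), and Rgs1, a regulator of G protein signalling (1.75). The list of neuronal activity-regulated genes did not share this direction. It had 1 of 8 above 0 and a median of -0.23, and Bdnf, a neurotrophin that neuronal activity induces, fell, at 23.2 and 23.7 in anti-CD8 neurons and 43.0 and 64.5 in IgG neurons (-1.22, adjusted p = 0.028). Of 12 heat shock and chaperone genes, 12 were above 0 with a median of 0.22 and none was called, and of 19 upstream kinases and factors 5 were above 0. All 3 tested genes linked to Klf2 in T cells were above 0 (median 1.94), as were all 5 tested vessel genes linked to Klf2 and Klf4 (median 0.85). None of these was called. The matched differences from other cells' RNA were computed for the members only, so the part of that RNA in these lists was not tested.

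In T cells 3 of the 10 members rose in anti-CD8 libraries, Atf3, Egr1 and Klf4, where 0.815% of 10304 genes tested were called and 0.65% were called higher. The fold changes of 9 of 10 members were above 0, with a median log2 fold change of 0.55, against -0.007 over all genes tested. Fos, Fosb, Jun, Junb and Klf2, called in neurons, were not called in T cells, nor were Atf3, Egr1 and Klf4 called in neurons. The difference between the classes is tested further on.

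Atf3, which was near its lowest level in T cells, was at 111 and 93.6 in anti-CD8 T cells and at 34.3 and 45.3 in IgG T cells (log2 fold change 1.34, SE 0.17, adjusted p = 0.015). Egr1 was at 110 and 117 in anti-CD8 T cells and at 65.3 and 54.1 in IgG T cells, a change of 0.94 (SE 0.14, adjusted p = 0.025). Klf4, an inhibitor of T-cell proliferation, was at 85.6 and 101 in anti-CD8 T cells and at 43.3 and 47.2 in IgG T cells, a change of 1.03 (SE 0.14, adjusted p = 0.021). In all 3 genes both anti-CD8 libraries lay above both IgG libraries. Jun, at 425 and 527 in anti-CD8 T cells and 315 and 288 in IgG T cells, missed the threshold (0.66, adjusted p = 0.059), as did Junb, at 2580 and 2555 against 1818 and 1994 (0.43, adjusted p = 0.072). Fosb was at 106 and 162 against 79.2 and 77.0 in IgG T cells (0.77, adjusted p = 0.106), and Fos at 223 and 214 against 162 and 174 (0.38, adjusted p = 0.176). The groups did not overlap for any of these 4 AP-1 genes. Nr4a1, the member tied to antigen receptor signalling, overlapped at 293 and 202 in anti-CD8 T cells and 185 and 215 in IgG T cells (0.31, adjusted p = 0.536), and Klf2 overlapped at 150 and 144 against 127 and 174 (-0.05, adjusted p = 0.953). Ier2 did not overlap, at 333 and 305 in anti-CD8 T cells and 269 and 268 in IgG T cells (0.25, adjusted p = 0.384).

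The make-up of the T cells also differed between the groups. Cluster 11, led by Nkg7, Grap2 and Ccl5, held 72.3% and 71.7% of anti-CD8 T cells and 91.8% and 88.3% of IgG T cells. Cluster 19, led by Icos, Trdc and Ikzf3, held 27.7% and 27.5% of anti-CD8 T cells and 6.58% and 10.5% of IgG T cells. The few remaining cells were in cluster 30, with 0 and 2 cells in anti-CD8 libraries and 5 and 8 in IgG libraries. Klf4 was at 160 and 204 CPM in cluster 19 of anti-CD8 libraries and at 184 and 179 CPM in IgG libraries, above its level in cluster 11 of any library. In cluster 11 it was at 61.0 and 64.2 CPM in anti-CD8 libraries and at 34.0 and 34.6 CPM in IgG libraries. Atf3 was at 152 and 241 CPM in cluster 19 of anti-CD8 libraries and 88.7 and 187 CPM in IgG libraries, and in cluster 11 at 97.8 and 38.2 CPM against 30.9 and 31.7 CPM. A larger share of cluster 19 and a higher level per cell cannot be told apart in the sums over all T cells. In cluster 11 alone no member was called, with Atf3 at a log2 fold change of 1.14 (adjusted p = 0.269), Egr1 at 0.79 (0.093) and Klf4 at 0.85 (0.088).

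Split by CD8 RNA, no member was called on either side. In T cells with a Cd8a or Cd8b1 UMI the log2 fold change was 1.25 for Atf3 (adjusted p = 0.425), 0.84 for Egr1 and 1.26 for Klf4 (adjusted p = 0.104), and 0 of 9169 genes were called. In T cells with no such UMI (224 and 156 cells in anti-CD8 libraries, 46 and 178 in IgG libraries), Klf4 was at 97.4 and 114 CPM in anti-CD8 libraries and 125 and 90.9 CPM in IgG libraries, a change of 0.03. Atf3 was at 129 and 126 CPM against 79.3 and 94.0 CPM there (0.50), and Egr1 had a change of 1.04 (adjusted p = 0.668). Klf4 thus overlapped between the groups among cells with no CD8 UMI.

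Microglia markers overlapped in the T-cell sums, at 164 and 244 CPM in anti-CD8 libraries and 166 and 142 CPM in IgG libraries, while endothelial markers were at 105 and 120 CPM in anti-CD8 libraries and 56.0 and 71.0 CPM in IgG libraries. B-cell markers were at 663 and 30.5 CPM in anti-CD8 libraries and 17.8 and 32.6 CPM in IgG libraries, high in 1 library. Dendritic cell markers were at 84.1 and 49.2 CPM in anti-CD8 libraries and 36.3 and 25.1 CPM in IgG libraries, with 3 of 3 tested above 0, and Spp1-high myeloid markers at 697 and 764 CPM against 663 and 551 CPM. Their part in the T-cell results was not tested. Among T cells with no UMI of a microglia marker, Atf3 was at 102 and 137 CPM in anti-CD8 libraries and 23.0 and 27.4 CPM in IgG libraries (log2 fold change 2.18, adjusted p = 0.004). Klf4 was called there too (1.49, adjusted p = 0.010), and Egr1 was not (0.87, adjusted p = 0.3003), where 69 of 7871 genes were called. Among T cells with no UMI of an endothelial marker, Atf3 (1.49, adjusted p = 0.002), Klf4 (1.21, adjusted p = 0.009) and Junb (0.45, adjusted p = 0.032) were called. More genes were called in that subset as well, 143 of 9236, against 84 of 10304 over all T cells. With no doublet removal, microglia markers in the T-cell sums were at 1804 and 1613 CPM in anti-CD8 libraries and 1523 and 1447 CPM in IgG libraries, and no member was called, with Atf3 at 0.15, Egr1 at 0.26 and Klf4 at 0.52. Egr1 (adjusted p = 0.058) and Klf4 (0.057) were also lost without anti-CD8 library 2, and Atf3 was kept without any 1 library.

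**Figure D4:**
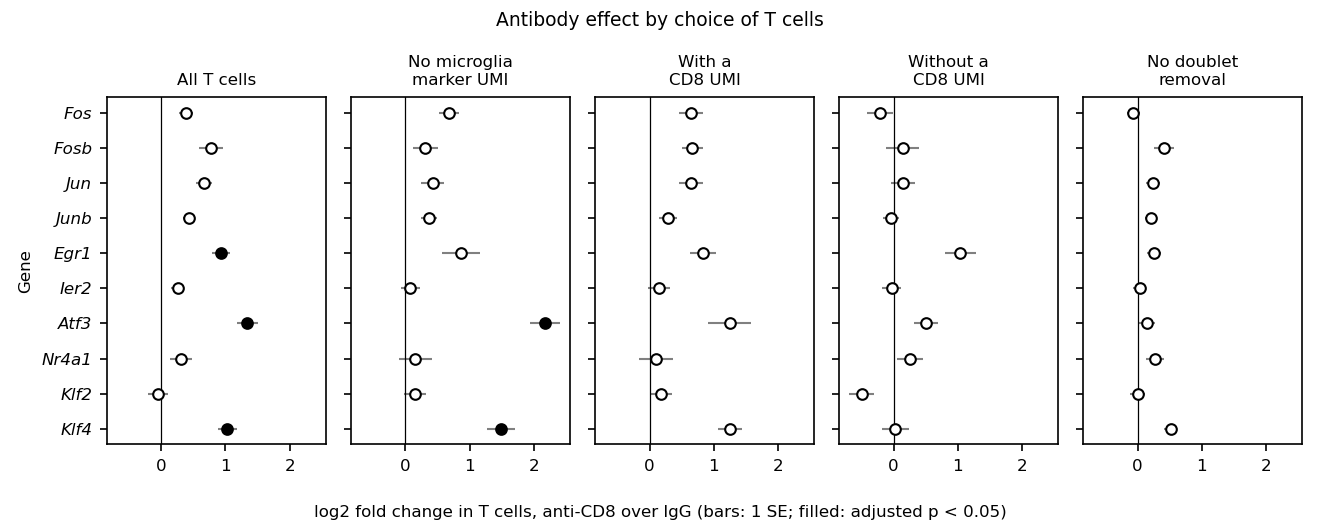
Log2 fold change of each member in T cells, anti-CD8 over IgG, with bars of 1 SE and filled points past the threshold, for all T cells, for those with no microglia marker UMI, with and without a CD8 UMI, and with no doublet removal. Atf3 and Klf4 stay past the threshold with no microglia marker UMI, at 2.18 and 1.49, where 69 of 7871 genes were called, and no member does in the last 3 panels.

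Thinned to 2000 UMIs, Atf3 was detected in 12.5% and 12.2% of anti-CD8 T cells and in 5.66% and 6.90% of IgG T cells, and Klf4 in 13.6% and 11.8% against 6.29% and 5.70%. Unthinned, Atf3 was in 29.0% and 27.5% of anti-CD8 T cells and in 15.99% and 16.2% of IgG T cells. Thinned again to 2000 UMIs, Junb, the most widely detected member, was in 94.0% and 95.4% of anti-CD8 and 84.3% and 89.1% of IgG T cells. At that depth at least 5 members were detected in 20.7% and 18.1% of anti-CD8 and 9.12% and 11.1% of IgG T cells. The share of T cells with no member detected did not overlap between the groups, at 2.17% and 0.42% in anti-CD8 libraries and 7.23% and 4.65% in IgG libraries.

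Of 19 effectors and feedback genes tested in T cells, 14 were above 0 and 2 rose. Gadd45b, a stress-response gene, was at 268 and 269 in anti-CD8 T cells and 99.2 and 138 in IgG T cells (log2 fold change 1.16, adjusted p = 0.018). Nfkbia, the IκB that restrains NF-κB, was at 384 and 501 in anti-CD8 T cells and 185 and 254 in IgG T cells (1.00, adjusted p = 0.045). Of 12 other immediate early transcription factors 10 were above 0, and of 8 genes linked to Klf2 in T cells 7 were above 0 with a median of 0.52. None of either list was called.

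In the myeloid, vessel and ependymal classes no member was called, where the background called was 0.0616% of genes in cluster 1 (0.0462% lower), 0.00592% in microglia, 0.00813% in macrophages, 0.00815% in mural cells, 0.00736% in cluster 3, 0.00701% in ependymal cells and 0% in endothelial and Spp1-high myeloid cells. At an unadjusted p under 0.05, edgeR counted 1234 of 15943 genes in Spp1-high myeloid cells and 661 of 13906 in endothelial cells.

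Spp1-high myeloid cells, which carry Spp1 and Gpnmb, had 9 of 10 members below 0, with a median log2 fold change of -0.22 against 0.001 over all genes tested. Fos was at 135 and 158 in anti-CD8 libraries and 192 and 211 in IgG libraries (-0.46, SE 0.08, adjusted p = 0.213). Fosb was at 54.2 and 46.2 in anti-CD8 libraries and 65.9 and 68.8 in IgG libraries (-0.42, SE 0.08, adjusted p = 0.230), and Atf3 at 417 and 371 against 510 and 454 (-0.29, adjusted p = 0.459). The groups did not overlap for these 3 genes or for Junb, at 907 and 1061 against 1111 and 1261 (-0.27). DESeq2 called Fos (adjusted p = 0.000239) and Fosb (0.00957), where 39 of 28004 genes were called, so the call depends on the fit. With 1 library left out, the change ranged from -0.58 to -0.36 for Fos and from -0.55 to -0.32 for Fosb. Of 19 effectors and feedback genes 17 were below 0.

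Cluster 3 had Fosb at 59.1 and 51.1 in anti-CD8 libraries and 75.9 and 78.4 in IgG libraries (-0.49, adjusted p = 0.237) and Atf3 at 415 and 450 against 517 and 576 (-0.34, adjusted p = 0.323). DESeq2 called both (adjusted p = 0.015 and 0.017), where 29 of 25001 genes were called. Klf4 went the other way in that cluster, at 65.1 and 66.8 in anti-CD8 libraries and 55.0 and 48.3 in IgG libraries (0.35, adjusted p = 0.333). Macrophages had 8 of 10 members below 0 (median -0.14), with Atf3 at 787 and 824 in anti-CD8 libraries and 970 and 897 in IgG libraries (-0.21, adjusted p = 0.943). In cluster 1 the lowest change was that of Junb (-0.25, adjusted p = 0.697).

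Microglia, the most numerous class, held 2538 and 2713 cells in anti-CD8 libraries and 2178 and 1896 in IgG libraries. The members had a median log2 fold change of 0.10, with 6 of 10 above 0. Klf4 was at 75.5 and 78.0 in anti-CD8 libraries and 65.9 and 67.8 in IgG libraries (0.20, adjusted p = 0.609), and Egr1, the largest change, overlapped at 356 and 473 against 261 and 398 (0.33). Atf3 in microglia had a change of -0.002.

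In mural cells, the pericytes and smooth muscle of the vessel wall, 10 of 10 members were below 0, with a median of -0.18. Fos was at 1622 and 993 in anti-CD8 libraries and 1726 and 1791 in IgG libraries (-0.43, SE 0.20, adjusted p = 0.997). Anti-CD8 library 2 was the low one: without it the change of Fos was -0.12 and 6 members were above 0, and without anti-CD8 library 1 it was -0.83. The clusters within the class differed: in cluster 26, led by the smooth muscle genes Acta2, Tagln and Myh11, Fos was at 1061 and 1132 CPM in anti-CD8 libraries and 2384 and 4193 CPM in IgG libraries, with 17 to 29 cells in each library. In cluster 18, which also carried endothelial RNA, Fos overlapped, at 1812 and 1095 CPM against 1664 and 1380 CPM. Without cluster 18 the change of Fos was -1.62 and was not called (adjusted p = 0.681).

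Endothelial cells, where Klf2 and Klf4 were highest, had Klf2 at 2190 and 2166 in anti-CD8 libraries and 2387 and 2270 in IgG libraries (-0.10, SE 0.08) and Klf4 at 1278 and 1348 against 1358 and 1316 (-0.03, SE 0.08). The other 8 members were above 0, led by Nr4a1 at 231 and 181 in anti-CD8 libraries and 171 and 166 in IgG libraries (0.29, SE 0.11). In ependymal cells 10 of 10 members were above 0 with a median of 0.12, which turned to 2 of 10 and -0.15 without IgG library 2. Fos was highest in this class, and its change was 0.006 (SE 0.22) at 4510 and 4380 in anti-CD8 libraries and 5602 and 3254 in IgG libraries.

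**Figure D5:**
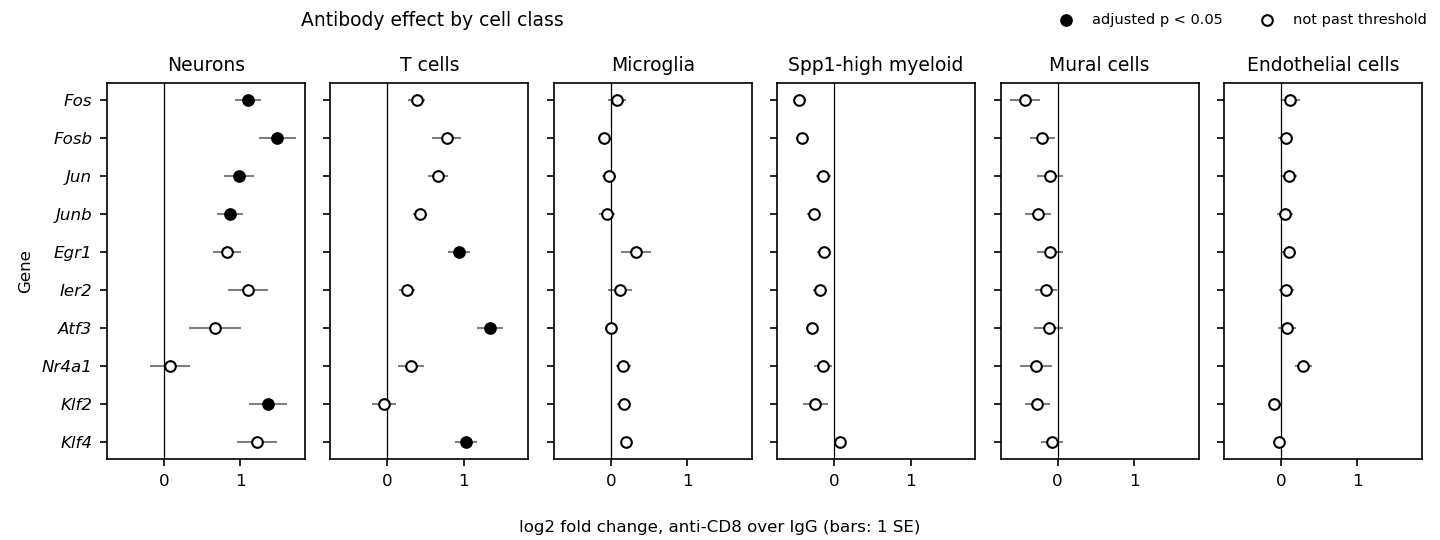
Log2 fold change of each member, anti-CD8 over IgG, in 6 cell classes, with bars of 1 SE; filled points are past an adjusted p of 0.05. The 5 filled members in neurons are Fos, Fosb, Jun, Junb and Klf2, the 3 in T cells are Egr1, Atf3 and Klf4, and none is filled elsewhere.

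The differences between classes were tested as an interaction of antibody and class, in 7 pairs of classes with the library as a block. The members were chosen with their directions in these classes known from the same data. The p-values of this test therefore describe the fit and are not independent support. Between neurons and T cells only Klf2 differed, by 1.51 on the log2 scale (SE 0.30, adjusted p = 0.0021), where 1.62% of genes were called. For Fos the difference was 0.79 (adjusted p = 0.087) and for Atf3 -0.52 (adjusted p = 0.688), so the call of Fos in neurons and of Atf3 in T cells alone does not separate the classes. Between neurons and microglia 7 members differed (2.23% of genes called), the largest being Fosb, by 1.54 (SE 0.21, adjusted p = 1.74e-07), and Klf2, by 1.18 (SE 0.26, adjusted p = 0.0015).

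Neurons aside, the effect in every class tested against T cells was lower for Atf3. The difference was -1.26 in endothelial cells (1.08% of genes called), -1.32 in microglia (1.25%) and -1.45 in mural cells (0.42%). It was -1.54 in macrophages (0.89%) and -1.58 in Spp1-high myeloid cells (1.56%). The adjusted p was between 4.96e-08 and 0.00815 over these 5 pairs, which share the same T-cell sums. The make-up of the T cells differed between the groups, as given above, and its part in these differences was not tested. Klf4 differed in all 5 as well, by -0.81 to -1.08, and Egr1 in 2 of the 5. Nr4a1 and Ier2 differed in none of them. Without doublet removal none of the T-cell differences was called, and the difference of neurons from microglia was called for 2 members.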

How the data were processed

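The tables deposited by the authors for each of 4 libraries hold UMI counts per gene and cell barcode, made with Cell Ranger 7.1.0 on GRCm39, per the submitters' processing notes. Cells needed 300 or more genes and no more than 20% of UMIs from mitochondrial genes, and the highest Scrublet scores, 0.8% per 1000 cells, were removed as doublets (511 and 562 in anti-CD8 libraries, 332 and 353 in IgG libraries). Library totals were 152457679 and 170539226 UMIs in anti-CD8 libraries and 153016369 and 152625351 in IgG libraries. Clustering used scanpy 1.11.5 with leidenalg 0.10.2 (3000 variable genes, 30 principal components, 15 neighbours, resolution 1), leaving out the 101 members and list genes. Clusters were named from marker lists, and 6.34% to 10.5% of each library's cells stayed in unnamed clusters other than clusters 1 and 3. Since names were rebuilt here, shares may differ from those of the study.

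UMIs were summed per class and library, and classes with at least 20 cells in each library were tested with edgeR 4.0.16 (TMM, filterByExpr, quasi-likelihood test, Benjamini-Hochberg adjustment over all genes of the class, called at 0.05). SE is the absolute log2 fold change over the root of F. Interactions used 8 sums of 2 classes with the library as a block. DESeq2 1.42.0, other scalings, no gene filter, a block of replicate numbers, other cell filters and leaving out each library were alternatives, and 13 subsets of cells were added after seeing the data. Shares were also computed with each cell thinned to 2000 or 1000 UMIs. All 10 members were named in each class; of other lists, the genes called (at most 4) or the 1 with the smallest p. Members and lists were chosen with earlier results of these data known. Promoters are from RefSeq (GRCm38.p6), with no coordinates carried between builds.

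Same-numbered libraries did not deviate together (correlation -0.038 to 0.064 over 10 classes), so the numbers were not taken as pairs. Counts differed between libraries well beyond sampling noise (chi-square per degree of freedom 22.3 to 34.2).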

Additional observations from a re-analysis of the deposited data

Results flagged for a closer look

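Differences in the antibody effect between cell classes, by the interaction of antibody and class in edgeR, drew attention for 32 combinations of member and pair of classes. Each value is the log2 fold change (anti-CD8 over IgG) in the first class minus that in the second.

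Neurons against T cells gave Klf2 alone, at 1.51. Neurons against microglia gave Fosb at 1.54, Klf2 at 1.18, Fos at 1.02, Klf4 at 1.01, Jun at 0.98, Ier2 at 0.98 and Junb at 0.91. For Klf2 and Klf4 in neurons, the matched differences from other cells' RNA given above together exceeded the measured ones. For Junb they nearly reached the measured one. The part of that RNA in these differences was not tested.

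Mural cells against T cells gave Atf3 at -1.45 and Klf4 at -1.08. Microglia against T cells gave Atf3 at -1.32, Fosb at -0.82, Klf4 at -0.81, Jun at -0.65 and Junb at -0.45. Macrophages against T cells gave Atf3 at -1.54, Klf4 at -1.05, Fosb at -0.88, Jun at -0.82 and Junb at -0.59.

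Spp1-high myeloid cells against T cells gave Atf3 at -1.58, Fosb at -1.16, Egr1 at -1.06, Klf4 at -0.92, Fos at -0.82, Jun at -0.76 and Junb at -0.68. Endothelial cells against T cells gave Atf3 at -1.26, Klf4 at -1.03, Egr1 at -0.81, Fosb at -0.67 and Jun at -0.51.

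The pairs with T cells share the same T-cell sums, so these are not separate observations of the T-cell effect. The make-up of the T cells differed between the groups, as given above, and its part in these differences was not tested. Members were chosen with earlier results of these data known, so the differences are not independent support for a pattern. Without doublet removal, 0 members were called in each T-cell pair and 2 in neurons against microglia.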

How the results depend on the processing

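Counts of members called moved as follows. In neurons, 5 members were called, against 9 with no gene filter, 8 with the replicate block, 3 with the stricter cell filter, 1 in neurons with no endothelial marker UMI, and 0 in the largest cluster alone or without doublet removal. Genes called moved too, from 178 of 13980 to 751 of 27022, 382 of 13980, 162 of 13915 and 235 of 10054, and to 1 of 13023 and 18 of 14135 in the last 2. In T cells, 3 were called, against 6 with no gene filter, 5 with no TMM scaling or with DESeq2, and 0 in the largest cluster, outside it, in cells with or without a CD8 UMI, and when doublets were kept. Genes called there were 84 of 10304, against 651 of 22040 with no filter, 134 with no TMM, 122 of 22040 with DESeq2 and 49 of 12035 with doublets kept. In Spp1-high myeloid cells, 0 were called, against 4 with no filter, 3 with the block, 2 with DESeq2 and 1 in cluster 5 alone, where genes called were 0 of 15943, 305 of 28004, 92 of 15943, 39 of 28004 and 10 of 13081. In cluster 3, 0 were called, against 6, 3 and 2 with no filter, the block and DESeq2 (genes called 1 of 13579, 326 of 25001, 85 of 13579 and 29 of 25001). Cluster 1 and microglia each had 1 with no filter, where genes called were 133 of 24083 and 487 of 29159. Mural cells against T cells had 5 with no filter, against 2 with it, where 0.42% of genes were called. The share of genes called with no filter is not given for that pair. The replicate block paired libraries by number and moved no other count past 1.5 times. The ranges given next come from fits that leave 1 library in a group. In the cell classes, the number of all genes called moved in those fits too. For the interactions, the share of all genes called in those fits is not given. The ranges therefore describe how the fits move and are not a result about the members alone.

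With 1 library left out, calls ranged from 3 to 5 in neurons, 1 to 6 in T cells, 2 to 5 in Spp1-high myeloid cells, 0 to 3 in cluster 1, 0 to 2 in cluster 3, and 0 to 1 in microglia and in ependymal cells. In the interactions they ranged from 0 to 3 (neurons against T cells), 3 to 8 (neurons against microglia), 0 to 1 (mural), 2 to 6 (microglia, and endothelial), 3 to 7 (macrophages) and 7 to 9 (Spp1-high) against T cells.

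Directions that reversed were, in neurons with no endothelial marker UMI, Fos (-0.32) and Nr4a1 (-0.75). In T cells they were Fos (-0.066) without doublet removal, Fos (-0.21), Junb (-0.045) and Ier2 (-0.027) with no CD8 UMI, and Klf2 with a CD8 UMI or in the largest cluster (0.18), with no endothelial (0.058) or no microglia marker UMI (0.15). Others were Klf4 (0.034) in mural cells without cluster 18, Jun (0.030), Egr1 (0.070) and Klf4 (-9.27e-05) in Spp1-high cluster 9, and Atf3 (0.0061) for endothelial against T cells without doublet removal. With 1 library left out, ranges crossing 0 in neurons, T cells, mural and Spp1-high cells were Nr4a1 in neurons (-0.13 to 0.38), Klf2 in T cells (-0.25 to 0.21), mural Fosb (-0.48 to 0.028), Jun (-0.29 to 0.078), Egr1 (-0.29 to 0.12), Ier2 (-0.34 to 0.0085), Atf3 (-0.49 to 0.17), Nr4a1 (-0.63 to 0.050) and Klf4 (-0.25 to 0.084), and Spp1-high Jun (-0.29 to 0.021), Nr4a1 (-0.35 to 0.086), Klf2 (-0.50 to 0.057) and Klf4 (-0.0055 to 0.14), and in the other 6 classes 35 of 60 ranges crossed 0. The cause was not tested.

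Of the values of single members followed, 814 kept direction and side of the threshold, 69 passed it only under the alternative, 103 lost it and 30 reversed. These counts, and the directions listed above as reversed, cover all members in neurons, T cells, mural cells and Spp1-high cells. In the other classes they cover a few chosen members, with none in ependymal cells, and in the interactions the members called. They are not totals over all members and classes. Neurons with no microglia marker UMI were not fitted (16 cells in IgG library 1), and clusters 1 and 3 have no counterpart without doublet removal or at resolution 2. Few neurons and 2 libraries a group limit the precision.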

Other observations

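Joint detection of members in single cells gave values outside the comparisons. At 2000 UMIs, among microglia with Fos, Jun was found in 69.5% and 71.8% of cells in anti-CD8 libraries and in 70.8% and 74.3% in IgG libraries. Among microglia without Fos it was found in 46.0% and 48.5% in anti-CD8 libraries and in 45.5% and 51.2% in IgG libraries. Among endothelial cells with Fos, Egr1 was found in 64.7% and 61.3% of cells in anti-CD8 libraries and in 62.0% and 67.9% in IgG libraries. Among endothelial cells without Fos, Egr1 was found in 29.1% and 27.8% in anti-CD8 libraries and in 33.6% and 33.9% in IgG libraries. In T cells with Fos, Jun was found in 55.2% and 54.0% in anti-CD8 libraries and in 65.3% and 46.5% in IgG libraries. In T cells without Fos, Jun was found in 27.4% and 25.1% in anti-CD8 libraries and in 16.7% and 17.0% in IgG libraries, which do not overlap.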
